A study of Mus musculus with 2 samples.

Results

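The genes described here encode the chaperones that fold proteins in the cytosol and in mitochondria, measured in neutrophils sorted from mouse bone marrow. Members were chosen by gene symbol, with earlier results of these data known. They are the Hsp90 alpha and beta genes, the Hsp70 and Hsp110 family, the small heat shock proteins, the J proteins of classes A, B and C, both mitochondrial chaperonin genes, the CCT chaperonin, the Bag1 to Bag6 cochaperones, and the heat shock factors Hsf1 and Hsf2. The endoplasmic reticulum chaperones Hspa5, Dnajb9, Dnajb11 and Dnajc3, and Cct6b, were left out. This gave 81 of the 18193 genes that had a probe set of their own, read by 194 probe sets. Hsp90ab1 and Hsf1 were not analysed here, and Dnajc19 shared its probe sets with a pseudogene. The label of the group fits most of its members but not all of them, since Hspa13, Dnajc1, Dnajc10 and Dnajc25 are known from the endoplasmic reticulum and Cct8l1 is a relative of the CCT gene Cct8.

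The cells came from the bone marrow of C57BL/6 mice, an inbred strain. After blocking of the Fc receptors with an anti-CD16/32 antibody, neutrophils were gated as live (DAPI-negative), high for Gr-1 and negative for CD48, and the sort was done in 2 independent experiments. The labels name no allele and no treatment of the mice, nor their age, their number or whether animals were pooled. Each experiment gave 1 expression array, called replicate 1 and replicate 2, so the study holds 1 group of 2 samples and no contrast between conditions. The values are MAS5 signals (a linear brightness for each probe set, with each array scaled to the same trimmed mean), and the number of arrays limits the precision.

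A signal was called above background when it exceeded the 95th percentile of 87 probe sets of sensory receptor genes on the same array, which was 108 on replicate 1 and 131 on replicate 2. For a gene, a single probe set past this limit on both arrays was enough. By this rule 40.4% of all genes passed. All 10 neutrophil markers passed, among them S100a8, Ltf, Camp and Mmp9. Of the markers of other cells, 1 of 7 B cell genes, 1 of 6 T and NK cell genes, 3 of 7 erythroid genes, 6 of 9 monocyte and macrophage genes, 1 of 6 progenitor genes and 1 of 7 eosinophil and mast cell genes passed. The ratio of 3′ to 5′ signal was 1.10 and 1.25 for actin and 0.762 and 0.783 for Gapdh on replicates 1 and 2.

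Chaperones bind unfolded proteins and let them fold, or hand them on for refolding or degradation. Hsp70 proteins do so in cycles of ATP hydrolysis that are started by J proteins and ended by nucleotide exchange factors such as the Bag and Hsp110 proteins. Hsp90 acts later, on nearly folded clients such as kinases and steroid receptors. The chaperonins Hsp60 with Hsp10 (in mitochondria) and CCT (in the cytosol, where actin and tubulin are clients) enclose a protein in a barrel. Heat shock factors bind repeats of the sequence GAA and its complement TTC in promoters and switch on the inducible members after heat and other stress. Neutrophils finish most of their protein synthesis in the marrow and are short-lived after they leave it.

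Of the 81 chaperone genes 43 (53.1%) were above background on both arrays, where 40.4% of all genes were. All 8 CCT genes were above background, as were 8 of 13 Hsp70 and Hsp110 genes, 21 of 41 J protein genes, 1 of 2 mitochondrial chaperonin genes, 2 of 6 Bag genes and 2 of 8 small heat shock protein genes. Hsp90aa1 was above background, and Hsf2, the one heat shock factor measured, and Cct8l1 were not. Of the other 38 genes, 6 passed on replicate 1 and not on replicate 2 (Dnajb4, Dnajb8, Dnajc18, Dnajc22, Hspa1a and Hspe1) and 7 on replicate 2 and not on replicate 1 (Bag2, Dnaja3, Dnajb5, Dnajc6, Dnajc9, Dnajc12 and Hspa12a). Bag4 and Hspb8 exceeded background on each array, but on different probe sets. The remaining 23 did so on neither array. With each array taken by itself, 51 members passed on replicate 1, where 46.3% of all genes did, and 52 on replicate 2, where 44.2% did. Probe sets bind their targets with different strength, so levels are not compared between genes.

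**Figure D1:**
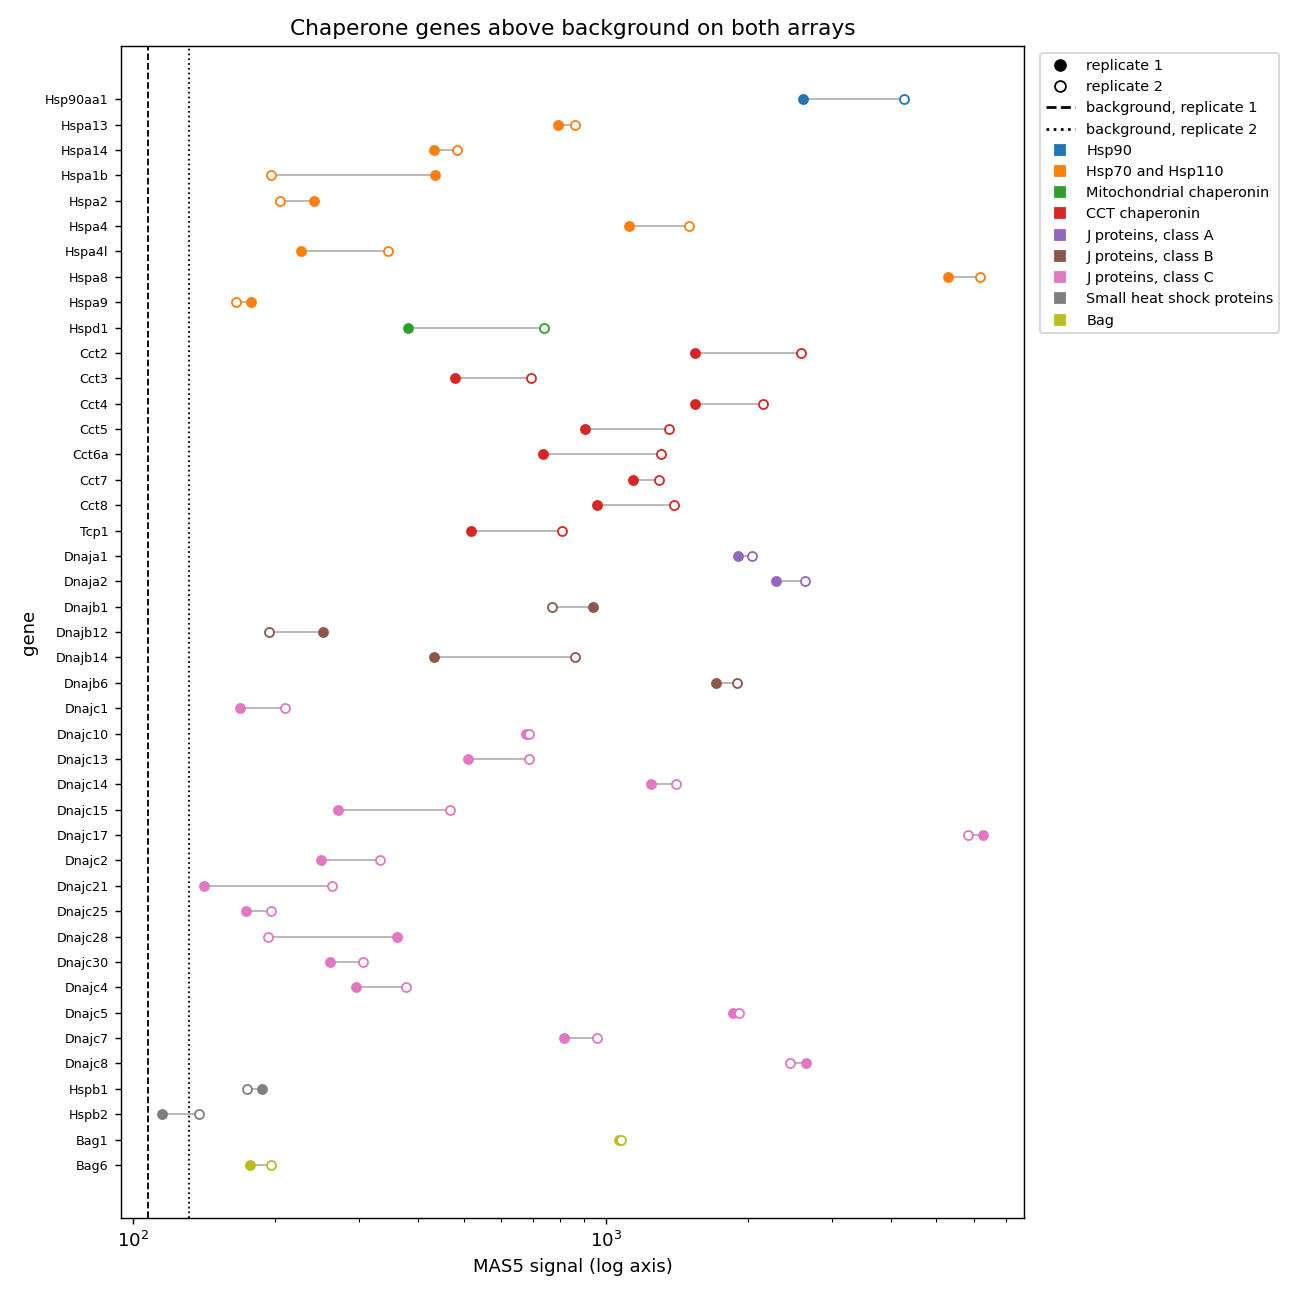
MAS5 signal (log axis) of the brightest probe set of each of the 43 chaperone genes above background on both arrays, with filled points for replicate 1, open points for replicate 2, colours for role classes, and the background of each array as vertical lines at 108 and 131. As deposited the 8 CCT genes have their open point to the right of the filled one (2 of 8 would with hybridisation control scaling), Hspa1b has it to the left, and distances between genes are not differences in RNA level.

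Differences between the arrays are given as log2 signal of replicate 2 minus replicate 1 on the brightest probe set of each gene. They are themselves the spread between the replicates, so no difference has a replicate check or a p-value. Among the 43 genes 34 were higher on replicate 2 (79.1%), against 56.3% of all 7343 genes read in this way, and 9 were lower. These counts turned to 6 higher and 37 lower after scaling to the hybridisation controls (9 probe sets for RNA added in known amounts; hybridisation control scaling below), where 8.38% of all genes were higher. The median difference of the members was 0.23 and that of all genes 0.07. As deposited, none of the 43 was over 2-fold higher on replicate 2 (3.39% of all genes read in this way were). Of the 43, 1 gene, Hspa1b, was over 2-fold lower (1.95% of all genes were). Dnajc9, below background on replicate 1 and so not among the 43, was at least 2.63-fold higher on replicate 2. Read over all 86 probe sets of members above background, 55 (64.0%) were higher on replicate 2, against 54.0% of such probe sets of all genes, so the excess was smaller there than over the brightest probe sets. In bulk samples, a change in the share of a cell type and a change in RNA per cell cannot be told apart.

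**Figure D2:**
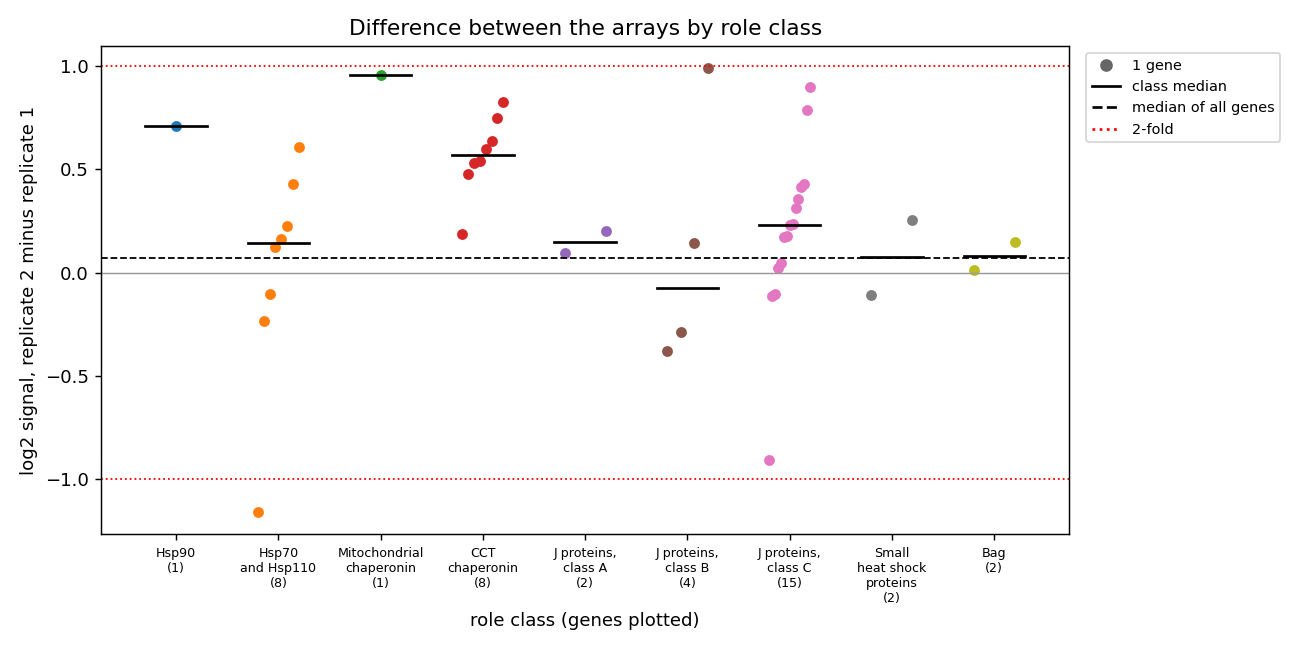
Difference in log2 signal, replicate 2 minus replicate 1, for each of the 43 genes (points) by role class, with the class median (bar), the median of all genes (dashed line, 0.07) and a 2-fold difference either way (dotted lines). The CCT genes lie between 0.19 and 0.83, Hspa1b lies at -1.16, and after scaling to the hybridisation controls 28 of the 34 points above 0 would lie below it.

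The cytosolic Hsp90 was read through Hsp90aa1, the gene of its stress-inducible alpha form. Its brightest probe set had signals of 2610 on replicate 1 and 4262 on replicate 2 (mean log2 signal 11.70 ± 0.50, SD, n = 2), a difference of 0.71. The probe sets of this gene did not go together: another had 680 on replicate 1 and 1020 on replicate 2, a further one had 961 and 955, and 2 more were below background on both arrays.

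Hspa8, which encodes the constitutive Hsp70 of the cytosol and also uncoats clathrin vesicles, had signals of 5279 and 6176 (12.48 ± 0.16, SD, n = 2). Of its 4 probe sets, 3 were higher on replicate 2 and the dimmest was lower, with 228 and 182. Hspa4 and Hspa4l belong to the Hsp110 branch, which recharges Hsp70 with ATP. Hspa4 had 1117 and 1502, and Hspa4l had 227 and 345. Each gene had 3 probe sets above background, of which 2 were higher and 1 was lower on replicate 2. Hsph1, the heat-inducible Hsp110, was not above background on either array, with signals of 2.40 and 5.13 and a second probe set as dim.

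Hspa14, an Hsp70 that works at the ribosome with the J protein Dnajc2, had signals of 433 and 485. Hspa13 had 790 and 862. Hspa2, known best from spermatogenesis, had 241 and 205. Hspa9 (mortalin), the Hsp70 of mitochondria that pulls proteins through the inner membrane, had 178 and 165 on its brightest probe set, and none of its other 4 probe sets was above background on both arrays. These 4 genes differed by -0.23 to 0.16 on the log2 scale. Hspa1l (3.35 and 1.59) and Hspa12b (4.62 and 6.11) were dim on both arrays, and Hspa12a was above background on replicate 2 alone, by 1 of its 4 probe sets (22.7 and 189).

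Hspa1a and Hspa1b encode the stress-inducible Hsp70 proteins. They lie next to each other on chromosome 17 and differ so little that one gene's probes can bind the other's RNA, so their signals are not separate measurements. RefSeq's promoter table (GRCm38.p6) gives the 250 bases before each start, shown here because 247 of 250 letters are the same in both (98.8%). Each holds 1 match to a pair of heat shock repeats (GAANNTTC or TTCNNGAA, N being any base), in capitals. The 250 bases of Hspa1a lie at chr17:34972157-34972406 and those of Hspa1b at chr17:34959239-34959488, both on the minus strand.
Hspa1a: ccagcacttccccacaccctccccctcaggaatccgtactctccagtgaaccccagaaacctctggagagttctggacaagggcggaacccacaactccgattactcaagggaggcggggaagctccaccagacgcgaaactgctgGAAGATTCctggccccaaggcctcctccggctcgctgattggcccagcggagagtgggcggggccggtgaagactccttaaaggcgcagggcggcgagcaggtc
Hspa1b: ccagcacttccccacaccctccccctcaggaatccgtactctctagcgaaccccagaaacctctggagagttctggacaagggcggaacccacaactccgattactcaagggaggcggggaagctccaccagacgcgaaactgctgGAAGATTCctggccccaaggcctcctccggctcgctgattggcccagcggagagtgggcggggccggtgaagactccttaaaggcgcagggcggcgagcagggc

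Hspa1b had signals of 435 on replicate 1 and 195 on replicate 2 (8.19 ± 0.82, SD, n = 2), 2.23-fold higher on replicate 1. Its second probe set had 248 and 166, and its dimmest had 183 and 124, the latter below background. Hspa1a was read by 1 probe set, with 127 on replicate 1, above background, and 59.8 on replicate 2, below it, which gives no bound on a fold because the background of replicate 2 was 131. All 4 probe sets of the pair were thus higher on replicate 1. Hspa1b was also lower on replicate 2 after quantile normalization (-1.22). Median scaling (-1.29) and scaling to the hybridisation controls (-1.87) lower every gene alike on replicate 2. A gene already lower there cannot turn under them, so these 2 values are no check of its direction. With the probe sets of the gene averaged the difference was -0.77, less than 2-fold.

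The Hspa1 pair belongs to a list of 11 genes known to be induced by heat (Hspa1a, Hspa1b, Hspa8, Hsp90aa1, Hsph1, Dnaja1, Dnajb1, Hspb1, Hspd1, Hspe1 and Bag3). Above background on both arrays were 7 of the 11 (63.6%, against 40.4% of all genes). Of these 7 genes, 4 were higher on replicate 2 (Hspa8, Hsp90aa1, Dnaja1 and Hspd1) and 3 were lower (Hspa1b, Dnajb1 and Hspb1), with a median of 0.09. This share of higher genes, 57.1%, was near the 56.3% of all genes. Of the list's 16 probe sets above background 7 were higher and 9 lower, where 54.0% of all such probe sets were higher. After scaling to the hybridisation controls 1 of the 7 genes was higher, where 8.38% of all genes were. Bag3, the heat-inducible partner of Hsp70 in selective autophagy, was below background on both arrays, with 12.9 and 82.5.

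Immediate-early genes, transcribed within minutes of many stimuli, differed between the arrays in the direction of the Hspa1 pair. Of 12 such genes 11 were above background (91.7%, against 40.4% of all genes). Of these 11 genes 10 were lower on replicate 2 (median -0.65), where 3206 of all 7343 genes read in this way were lower. The summed signal of all 12 was 61595 on replicate 1 and 41784 on replicate 2. Junb had 1281 and 529 and Egr1 had 5890 and 3139. The monocyte and macrophage markers were also lower in 5 of 6 genes above background (median -0.84), beside the same 3206 of 7343 over all genes. Their summed signal over all 9 was 7618 and 3412. Of these 9 markers, C1qa had 104 and 7.45 and Irf8 98.7 and 88.8, both below background on both arrays. The part of either group in the Hspa1 difference was not tested.

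Mitochondrial folding uses the Hsp60 barrel, encoded by Hspd1, and its lid Hsp10, encoded by Hspe1. These genes face away from each other on chromosome 1, and the 215 bases between their starts (chr1:55087933-55088147, GRCm38.p6, plus strand, the direction of Hspe1) lie before both. RefSeq lists a further start for Hspd1, which is not used here. The stretch is shown because the search described below found the longer heat shock motif of both genes in it: 3 overlapping pairs (in capitals), which make 2 overlapping matches to the 3-repeat form. That form is GAA, any 2 bases, TTC, any 2 bases and GAA, or its complement with TTC at both ends.
Hspd1-Hspe1: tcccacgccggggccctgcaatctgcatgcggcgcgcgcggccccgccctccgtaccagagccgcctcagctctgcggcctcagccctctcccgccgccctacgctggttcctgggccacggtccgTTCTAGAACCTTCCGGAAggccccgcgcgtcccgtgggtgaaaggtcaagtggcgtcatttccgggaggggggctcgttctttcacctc

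Hspd1 had signals of 381 and 739 (9.05 ± 0.68, SD, n = 2), 1.94-fold higher on replicate 2, on its only probe set. Hspe1 had 113 and 90.3 on the brighter of its 2 probe sets, above background on replicate 1 alone, and 30.2 and 53.5 on the other. 

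The 3-repeat form of the heat shock motif was searched on both strands in the 250 bases before the start of the 66 member genes that had an entry in RefSeq's promoter table. It was found in 3 of them (4.55%), Hspd1, Hspe1 and Dnajb6, and in 139 of 27025 genes (0.514%) of the whole table. By windows, since a gene can have several starts, these were 4 of 86 (4.65%) and 153 of 32851 (0.466%). The Hspd1 and Hspe1 matches are the same letters, in the stretch between their starts. Both member counts therefore hold that stretch more than once, and their matches are not independent. The 2-repeat form, which every 3-repeat match contains, was found in 17 members (25.8%), against 14.5% of all genes. Of the members above background on both arrays, 8 had a 2-repeat match, with a median difference of 0.12 and 6 higher on replicate 2, and 26 had a window without one, with a median of 0.22 and 20 higher. Of 7 CCT genes with a window, Cct2 and Cct5 had a 2-repeat match. A match is a description of the letters and not a site shown to be bound.

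Dnajb6 encodes a class B J protein that keeps aggregation-prone proteins soluble. The 250 bases before its first start (chr5:29735648-29735897, GRCm38.p6, plus strand) are shown because they carry the one 3-repeat match among J protein genes. The capitals mark the overlapping pairs that form it.
Dnajb6: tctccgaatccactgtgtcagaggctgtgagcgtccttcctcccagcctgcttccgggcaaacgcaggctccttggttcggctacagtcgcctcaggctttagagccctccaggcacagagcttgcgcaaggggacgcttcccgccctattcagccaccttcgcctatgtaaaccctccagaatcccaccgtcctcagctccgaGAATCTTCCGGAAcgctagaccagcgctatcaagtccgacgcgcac

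The brightest of the 4 Dnajb6 probe sets had signals of 1711 and 1889. All 4 were above background, with 2 higher and 2 lower on replicate 2 (differences from -0.45 to 0.14).

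The CCT chaperonin is a double ring of different subunits, each from a gene of its own. All 8 of the subunit genes measured were above background and higher on replicate 2 as deposited, where 56.3% of all genes were higher. With hybridisation control scaling 2 of 8 were higher, against 8.38% of all genes. Cct2 had 1542 on replicate 1 and 2588 on replicate 2 (10.96 ± 0.53, SD, n = 2). Cct6a had 737 and 1307 (9.94 ± 0.58, SD, n = 2), the widest difference of the ring at 1.77-fold. Tcp1, which encodes the alpha subunit, had 519 and 806. Cct5 had 901 and 1361, and Cct8 had 958 and 1394. Cct3 had 479 and 693, and Cct4 had 1542 and 2144. Cct7 had 1138 and 1297 (10.25 ± 0.13, SD, n = 2), the narrowest difference at 1.14-fold.

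The median CCT difference was 0.57, which was 0.50 above the median of all genes, and the 8 values had an SD of 0.19 among themselves. None reached 2-fold. On replicate 2, 8 of 8 genes were higher as deposited, after median scaling and after quantile normalization. With hybridisation control scaling 2 of 8 were, where their median was -0.15 and that of all genes -0.64. The shares of all genes higher in these settings were, in turn, 56.3%, 44.6%, 54.7% and 8.38%. The distance to all genes was 0.55 after quantile normalization. Median and hybridisation control scaling shift every gene alike, so the distance of 0.50 cannot change under them. With the probe sets of each gene averaged, 7 CCT genes passed and 6 were higher. Of 17 CCT probe sets above background 16 were higher on replicate 2, the exception being the second Cct7 probe set with 366 and 278. Cct3 and Cct4 had 7 probe sets each, of which 3 and 4 were above background on both arrays. A further Cct4 probe set, above background on replicate 1 alone and so not among the 17, was lower on replicate 2, with 226 and 121.

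Prefoldin delivers unfolded actin and tubulin to CCT. Its genes and those of the CCT cofactors Pdcl, Pdcl3 and Txndc9 were above background in 9 of 9, against 40.4% of all genes. Of these 9 genes 8 were higher on replicate 2 as deposited and 3 with hybridisation control scaling (medians 0.36 and -0.35), where 56.3% and 8.38% of all genes were. None was over 2-fold apart as deposited. Pfdn1 had 194 and 350, Txndc9 had 1246 and 2114, and Pfdn5 had 3729 and 3674. Of 19 proliferation genes 10 were above background on both arrays (52.6%, against 40.4% of all genes). Of these 10 genes 10 were higher on replicate 2 as deposited (median 2.53) and 9 with hybridisation control scaling, where 56.3% and 8.38% of all genes were. The summed signal of all 19 was 2821 on replicate 1 and 13085 on replicate 2. Mki67 had 212 and 2149. Of the 10 neutrophil markers 8 were higher on replicate 2 as deposited (median 0.55), 7 with median scaling, 5 with quantile normalization and 3 with hybridisation control scaling. In these settings 56.3%, 44.6%, 54.7% and 8.38% of all genes were higher. Among the markers Cxcr2 had 7212 and 3224 and Csf3r had 7951 and 4670, both lower on replicate 2. The progenitor marker Kit, the 1 of 6 above background on both arrays, had 244 and 547. Gata2, above background on replicate 1 alone, had 157 and 88.5. Of the 4 progenitor markers above it on neither array, Flt3 and Meis1 were lower on replicate 2 and Cd34 and Hoxa9 were higher. The part of dividing cells, of progenitors or of the make-up of the neutrophils in the CCT difference was not tested.

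**Figure D3:**
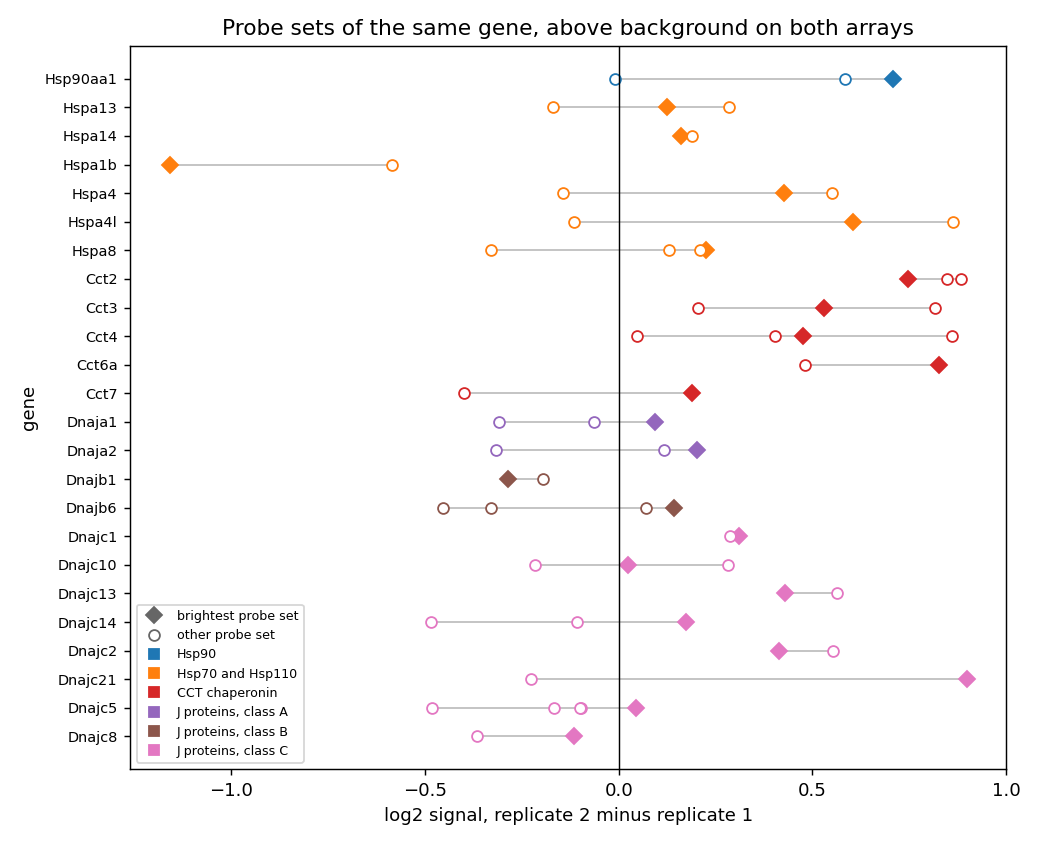
Difference in log2 signal, replicate 2 minus replicate 1, for every probe set above background on both arrays in the 24 genes with more than 1 such probe set, with diamonds for the brightest and circles for the others. The probe sets lie on 1 side of 0 in 11 of the 24 genes, among them Cct2, Cct3, Cct4, Cct6a and Hspa1b, and on both sides in the other 13.

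J proteins stimulate the ATPase of Hsp70 and choose its clients. The class A genes Dnaja1 and Dnaja2, general partners of cytosolic Hsp70, had signals of 1905 and 2034 (10.94 ± 0.07, SD, n = 2) and of 2286 and 2631 (11.26 ± 0.14, SD, n = 2). The probe sets of each gene went both ways between the arrays. Dnaja3, a mitochondrial J protein, was above background on replicate 2 alone, with 52.5 and 152 on its brightest probe set. Its further probe sets were below background on both arrays and lower on replicate 2 (31.4 and 5.89, 31.1 and 3.26), so no direction was drawn. Dnaja4 was dim on both arrays.

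In class B, Dnajb1, the classical heat-inducible Hsp40, had 939 and 770 (9.73 ± 0.20, SD, n = 2), and its second probe set had 658 and 575, also lower on replicate 2. Dnajb12 and Dnajb14 sit in the membrane of the endoplasmic reticulum with the J domain towards the cytosol and take part in degrading misfolded membrane proteins. Dnajb14 had 433 and 859, a 1.98-fold difference, and its second probe set had 97.1 and 222. Dnajb12 had 252 and 194, and its second probe set, below background on both arrays, had 77.1 and 97.8. On the brightest probe sets these related genes differed in opposite directions. With hybridisation control scaling the values were 0.27 for Dnajb14 and -1.09 for Dnajb12. That scaling lowers every gene alike on replicate 2, so Dnajb14 could turn under it and Dnajb12 could not. Dnajb3, Dnajb7 and Dnajb13 were below background on both arrays, and Dnajb8 was above it on replicate 1 alone (145 and 90.5).

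Class C holds J proteins of very different tasks, and 15 of its 26 genes were above background (57.7%, against 40.4% of all genes). Of these 15 genes 12 were higher on replicate 2 as deposited, 10 with median scaling and 2 with hybridisation control scaling. The shares of all genes higher in these settings were 56.3%, 44.6% and 8.38%. Dnajc21, needed for maturation of the large ribosomal subunit, had 141 and 263 on its brightest probe set, and 199 and 170 on the other one above background. Dnajc15, of the mitochondrial inner membrane, had 271 and 467. Dnajc28 had 361 and 193, 1.87-fold higher on replicate 1, while its second probe set had 60.7 and 111, below background on both arrays.

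Dnajc13, which acts on endosomes, had 510 and 687. Dnajc2, the J protein bound to ribosomes, had 249 and 332, and its second probe set above background had 195 and 286. Dnajc4 had 296 and 378. Dnajc1 had 169 and 209, and Dnajc7, which binds both Hsp70 and Hsp90, had 815 and 959. The other class C genes above background differed by at most 0.23 on the log2 scale. Among them Dnajc5, which encodes the vesicle chaperone cysteine string protein, had 1855 and 1913 on its brightest probe set, while the other 4, also above background, were lower on replicate 2.

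Dnajc9, a J protein that is also a histone chaperone, had signals of 62.4 on replicate 1, below background, and 283 on replicate 2. This was at least 2.63-fold higher there as deposited, a bound that is smaller with hybridisation control scaling. Dnajc9 was read by 1 probe set. The proliferation genes listed beside the CCT ring were higher on the same array, and the part of dividing cells in the Dnajc9 difference was not tested. Dnajc17, linked to splicing, was read at 6268 and 5843 by 1 probe set while its other 2 were below background on both arrays (63.7 and 3.85, 4.18 and 7.85), so its call rests on that single probe set. Over all 21 J protein genes above background 16 were higher on replicate 2 (76.2%, against 56.3% of all genes) with a median of 0.18. Over their 42 probe sets 22 were higher (52.4%, against 54.0% of all such probe sets), with a median of 0.03. With the probe sets of each gene averaged, 17 J protein genes passed, of which 8 were higher, with a median of -0.02, where 54.8% of all genes were higher. With hybridisation control scaling 3 of 21 were higher, where 8.38% of all genes were.

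Among the small heat shock proteins, which hold unfolded proteins without ATP, Hspb1 had 188 and 174 and Hspb2 had 115 and 138. Hspb2 lay just above the limits of 108 and 131. Hspb8, the partner of Bag3, had probe sets that disagreed: one had 85.8 and 230 and another 141 and 10.8, so no direction was drawn. Hspb3, Hspb6, Hspb7, Hspb9 and Hspb11 were below background on both arrays. Genes entered this class by symbol alone, Hspb11 among them, and none was shown here to act as a chaperone. Of the Bag genes, Bag1 had 1067 and 1074 (10.06 ± 0.01, SD, n = 2), the smallest difference of all members above background as deposited but not with median or hybridisation control scaling, and Bag6, a factor in the sorting of membrane proteins and the degradation of mislocalised ones, had 176 and 195. Bag2 had 81.5 and 134 and Bag5 had 14.5 and 28.2. Hsf2 had 52.4 and 57.6, below background on both arrays. Bag4 had 185 and 119 on one probe set and 104 and 154 on another.

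Partners of these chaperones that are not members were above background in 25 of 29 measured genes, where 40.4% of all genes were. The Hsp90 cochaperones passed in 7 of 8. Among the 25, Chordc1, which binds Hsp90, was the single gene over 2-fold apart as deposited, with 460 and 1022 (2.22-fold). It was less than 2-fold apart with hybridisation control scaling. Lonp1, a mitochondrial protease gene below background on replicate 1, had 98.2 and 206. Stip1, which links Hsp70 to Hsp90, had 168 and 146, and Cdc37, which brings kinases to Hsp90, had 533 and 630. The Hsp70 partners passed in 3 of 3, with Stub1, a ubiquitin ligase, at 241 and 376. The mitochondrial folding, import and protease genes passed in 6 of 9. Grpel1, the exchange factor of Hspa9, had 363 and 531. Of the 25 partners 22 were higher on replicate 2 as deposited, 19 with median scaling and 5 with hybridisation control scaling, where 56.3%, 44.6% and 8.38% of all genes were.

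A list of 15 folding genes of the endoplasmic reticulum, none of them a member, was above background in 13 genes (86.7%, against 40.4% of all genes). Of these 13 genes 11 were higher on replicate 2 as deposited (median 0.62) and 6 with hybridisation control scaling (median -0.10), where 56.3% and 8.38% of all genes were. Hspa5, the Hsp70 of that compartment, had 3846 and 5256. Hsp90b1, its Hsp90, had 1738 and 3612 (2.08-fold), and the lectin chaperone Canx had 1085 and 2179 (2.01-fold). Both passed 2-fold as deposited but not with median or hybridisation control scaling, which shift every gene by -0.13 and -0.71. As deposited the medians were 0.57 for the CCT genes, 0.14 for the Hsp70 and Hsp110 genes and 0.18 for the J proteins. With 2 arrays no difference between these lists could be tested. With hybridisation control scaling the medians of the CCT, Hsp70 and J protein genes were -0.15, -0.57 and -0.54.

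**Figure D4:**
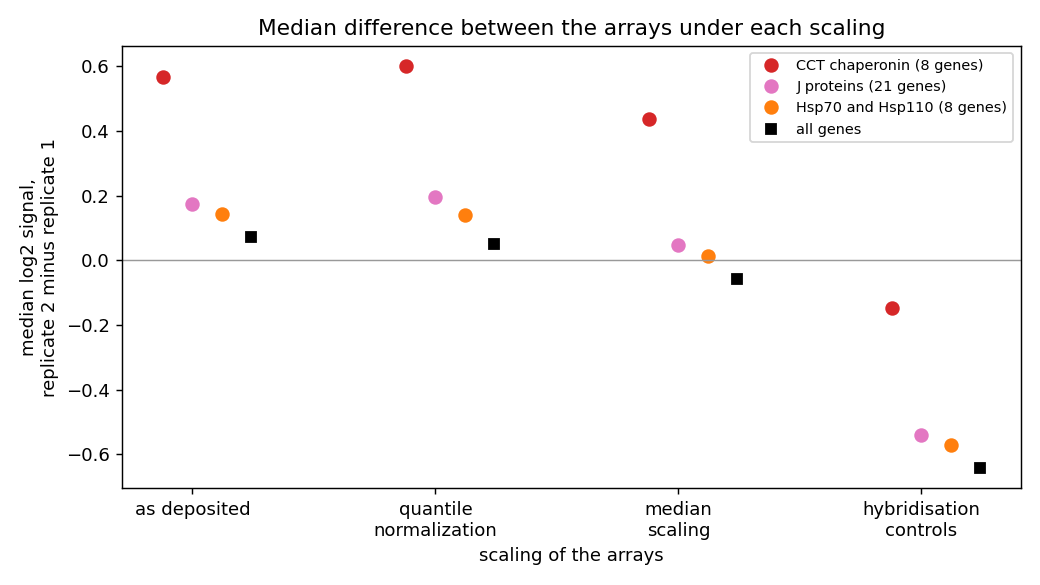
Median difference in log2 signal, replicate 2 minus replicate 1, of the CCT genes, the J proteins, the Hsp70 and Hsp110 genes (circles) and all genes (squares) under 4 scalings of the arrays. The CCT median turns from 0.57 to -0.15 with the hybridisation controls, where all genes lie at -0.64.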

How the data were processed

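Gene expression was measured in bone marrow neutrophils on 2 arrays of 45101 probe sets, 1 per experiment. Per the submitters' processing notes the authors used MAS5, and the deposited values are its linear signal intensity. The version and settings of MAS5 are not stated. Checked on the values, the trimmed mean (without the lowest and highest 2%) was 250.0 on both arrays, so differences are relative to that scaling. Gene names are those of the platform annotation at GEO: 34945 with 1 gene were used, 932 with several genes and 9211 unnamed were not, and 64 control probe sets were left out. All 81 members kept their symbol in RefSeq's gene table.

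A gene's level is the log2 signal (floor 1) of its brightest probe set by mean. A fold against a signal below background used that array's background as a lower bound. The arrays of 1 group allow no test. Members are named by role class; class C J proteins are the 8 with the widest differences, and other class C, partner, endoplasmic reticulum, immediate-early and marker genes were named after their values were seen. The members and lists were chosen with earlier results of these data known. Scripts (Python 3.11.15, numpy 2.4.6, pandas 2.3.3) were tested on simulated data. Alternatives changed the background, scaling, probe sets, arrays used or, in place of the floor, added a pseudocount of 32 to each signal.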

Additional observations from a re-analysis of the deposited data

Results flagged for a closer look

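Dnajc19, a J protein of mitochondrial protein import, is read by 3 probe sets that the platform annotation also assigns to its pseudogene, so it was kept out of the members. One of these probe sets passed the background limit of each array, at 334 on replicate 1 and 442 on replicate 2, a signal in data that the report's comparisons do not use. The others had 70.2 and 61.5, and 13.8 and 220. Whether this RNA came from the gene or the pseudogene was not tested.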

How the results depend on the processing

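The count of 43 members above background ranged from 33 to 47 over the other backgrounds and probe set choices, and was 51 and 52 on replicates 1 and 2 taken alone; Hsp70 and Hsp110 genes numbered 5 in place of 8 with the 99th percentile as background. Scaling to the hybridisation controls shifted the median of all genes by -0.71 and median scaling by -0.13. With the hybridisation controls 8.38% of all genes were higher on replicate 2. Genes higher there numbered 6 of all members, 2 of CCT, 0 of Hsp70 and Hsp110, 3 of J proteins and 1 of the heat inducible list. The medians of these groups were, in turn, -0.49, -0.15, -0.57, -0.54 and -0.62. In the same setting 4 members, 3 of them J proteins, 2 of them in the heat inducible list, were over 2-fold lower. Median scaling put 2 members over 2-fold lower, 1 of them the J protein gene Dnajc28. With probe sets averaged, 8 of 17 J protein genes were higher (median -0.02), 1 member, a J protein gene, was over 2-fold higher, and 0 were over 2-fold lower, in all members, Hsp70 and the heat inducible list alike. With the 99th percentile 0 were over 2-fold lower in these same groups. Without a background filter 57 members were higher (8 Hsp70 and Hsp110, 29 J proteins), 9 over 2-fold higher (2, 4 and, in the heat inducible list, 2) and 9 over 2-fold lower (3, 4 and 2). The cause was not tested where the setting itself does not give it. Other alternatives left these counts within 1.5 times and medians within 0.20, the median SD of a member over the arrays. No paired analysis was possible because there is 1 group. The distance of dim members from background limits what can be said of them.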
